A study of Danio rerio with 18 samples.

Results

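The mRNA of the zebrafish egg is described here by how it was divided between polysomes and the polysome-free fraction. Members are the genes with at least 100 normalized counts in the unfractionated egg library and at least 100 in the bound and unbound libraries together, which gave 14329 of the 27015 genes in the table. Of these, 12914 carried a gene symbol and 629 were loci assembled by the submitters. The value for each gene is log2 of (bound + 1) over (unbound + 1), called the ratio below. A positive ratio means a higher normalized count in the bound than in the unbound library.

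An mRNA that carries several ribosomes sediments with polysomes, whereas an mRNA that is not being translated stays in the lighter, polysome-free material. The egg makes almost no new RNA, so the proteins of the first cell cycles come from mRNAs stored during oogenesis. Many of these are held silent by RNA-binding proteins and short poly(A) tails until oocyte maturation or fertilisation.

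The egg libraries are the polysome-bound RNA, the polysome-unbound RNA and the unfractionated RNA of untreated wild-type fish of the AB strain, depleted of ribosomal RNA. The material was pooled, the labels give the tissue as whole embryo, and they do not say whether the eggs had been activated. The same 3 preparations exist for 1-cell, 16-cell, 128-cell, 3.5 hpf and 5.3 hpf (hours post fertilisation) embryos of this strain, with 1 library for each of the 18 combinations. With 1 library per fraction, no p-value can be given for the egg ratio. Genes are therefore ranked, counted and described.

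Reads assigned to transcripts were 50.7 M in the bound, 38.4 M in the unbound and 57.1 M in the unfractionated egg library. At 50 normalized counts in each fraction the 95% exact counting interval of the ratio ran from −0.74 to 0.64, and at 500 in each from −0.21 to 0.21. These intervals cover counting error only. The 256 members with 100 to 110 unfractionated counts had a median ratio of −0.14, and the 263 genes with 90 to 100 counts, just outside, had one of −0.18.

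Markers of the egg were present. Of 19 zona pellucida genes, which encode the egg envelope, 18 reached 100 unfractionated counts, as did 32 of 36 oocyte and egg genes. Of 61 genes that the embryo transcribes first, 19 did, with a median of 27.3 counts over the list. Markers of other maternal cells were mostly low, at 4 of 25 ovarian follicle genes, 1 of 12 blood genes, 1 of 15 muscle genes and 0 of 20 liver genes. The follicle genes included the steroid enzymes CYP17A1, at 6622 unfractionated counts, and CYP11A1, at 6372. CYP11A1 had 20340 bound and 3598 unbound counts, and CYP17A1 had 9231 and 5634, a ratio of 0.71. Whether these came from the egg or from follicle cells was not tested. In such bulk RNA, fewer cells of a type and less RNA per cell cannot be told apart.

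The ratio was spread widely. Its median was −0.03, its quartiles −0.79 and 0.94, and its 5% and 95% points −1.64 and 2.56. At least 2-fold higher in bound were 3428 genes (23.9%), and at least 2-fold higher in unbound were 2651 (18.5%). The other 8250 genes (57.6%) lay within 2-fold. In the unbound library 4 members were listed at 0. The upper tail was longer, with 1386 genes at least 4-fold and 391 at least 8-fold higher in bound, against 266 and 16 in unbound. The bound library was also the more concentrated one: 913 genes made up 50% of its counts, against 1542 genes in the unbound and 1524 in the unfractionated library.

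**Figure D1:**
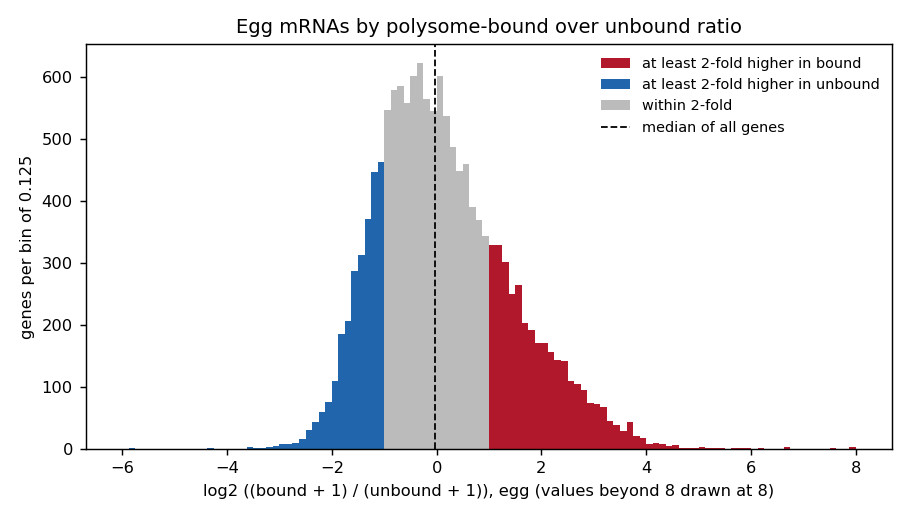
Number of egg genes in each bin of the log2 bound over unbound ratio, with genes at least 2-fold higher in bound, at least 2-fold higher in unbound and within 2-fold in separate colours. The median (dashed) lies at −0.03, and the side of the bound fraction has the longer tail.

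The zero of this scale is set by the authors' normalization and is not the point of equal mRNA mass. Scaling both libraries to their column sums shifted the median ratio by −0.69, and scaling them to 4 control-like sequences that are in both fractions shifted it by −1.67. Of the 44 list medians, 29 were above 0, of which the first scaling put 22 and the second 28 below 0. Directions below are therefore on the authors' scale and are to be read relative to the other egg mRNAs. The counts given for each list are to be read beside the shares over all members, 23.9% at least 2-fold higher in bound and 18.5% in unbound. Non-negative weights for the 2 fractions were fitted to the unfractionated counts on relative errors, with repeated reweighting so that genes with large errors counted less. This gave 0.201 for bound and 0.670 for unbound. The weighted sum came within 2-fold of the unfractionated count for 94.7% of members. With these weights, the estimated share of a gene's mRNA in the bound fraction was 22.7% at the median, with quartiles of 14.7% and 36.5%. It was also 22.7% at the median of the 13 mRNAs encoded by the mitochondrial genome, which cytosolic ribosomes do not translate. The share is therefore one of the bound fraction and not a measure of translation. The estimate has no replicate error. The unfractionated library followed the unbound one more closely (Spearman rho 0.961 across genes) than the bound one (0.919), and bound and unbound had a rho of 0.865.

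Genes for the meiotic arrest and for entry into the first divisions were among the most polysome-rich. fbxo43, which encodes the inhibitor that holds the vertebrate egg in metaphase of the second meiotic division, had 38441 bound, 1272 unbound and 2988 unfractionated counts, a ratio of 4.92. Its weighted sum, as defined above, was 2.86 times the unfractionated count. Its relative fbxo5, the inhibitor of the anaphase promoting complex in somatic cycles, lay on the other side. It had 5938 bound, 22180 unbound and 22178 unfractionated counts, a ratio of −1.90. The 2 relatives thus stood near opposite ends of the ranking. pttg1, the securin that guards cohesin until anaphase, had 21170 bound, 510 unbound and 5517 unfractionated counts, a ratio of 5.37. Of 33 meiotic arrest and egg activation genes, 16 were at least 2-fold higher in bound and 1, fbxo5, in unbound, with a median of 0.93 against −0.03 for all genes. In this list, which does not hold pttg1, bmb (brambleberry, needed for pronuclear fusion in fish) was at 3.67 and the calmodulin gene CALM2 at 3.09.

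Of 15 cyclin genes, 7 were at least 2-fold higher in bound and 2 in unbound. Cyclin E, of the S phase entry, and the mitotic cyclins A1, A2, B1 and B2 were among those higher in bound. CCNE1 had 126259 bound, 8529 unbound and 36126 unfractionated counts, and CCNB1 had 145812, 9867 and 49640, each a ratio of 3.89. CCNA2 had 132596 bound and 16609 unbound counts, 7.98-fold higher in bound. Its germ line relative CCNA1 was at 2.74, and the second B cyclin CCNB2 had 105883 bound and 17423 unbound counts. On the other side were the G1 cyclin CCND1, with 194 bound and 480 unbound counts (−1.30), and CCNG1, a target of p53, with 10861 and 23103 (−1.09). ccnb3, the divergent B cyclin, had a ratio of −0.70.

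Spindle and checkpoint genes also divided within complexes. CDC20, the activator of the anaphase promoting complex, had 83921 bound, 8345 unbound and 32358 unfractionated counts, a ratio of 3.33. BUB3, a checkpoint protein, had a ratio of 4.29 from 7107 bound and 363 unbound counts, with a weighted sum more than 2-fold above its 696 unfractionated counts. Its partner bub1ba had one of −1.93 from 1497 bound and 5722 unbound counts, while bub1bb, named as the other copy, had 5435 and 5571 (−0.04). nuf2, a kinetochore subunit, had 2947 bound and 16121 unbound counts, a ratio of −2.45, the lowest of this list. BIRC5 (survivin) at 3.17 and cdca8 (borealin) at −1.27 are subunits of 1 complex, the chromosomal passenger complex, and lay on opposite sides. Of 61 genes, 27 were at least 2-fold higher in bound and 7 in unbound. Motor genes were similar, with 23 and 3 of 50, led among kinesins by kif20a at 3.28 and KIF22 at 3.19, both of which act in mitosis.

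The list of cohesin and condensin, whose proteins hold and compact chromosomes, also has genes of their regulators. Its highest ratio was the 5.37 of the securin gene pttg1. The median was 1.40, with 16 of 27 at least 2-fold higher in bound and 1 in unbound. Scaling to the control-like sequences put this median at −0.28. The cohesin subunits SMC3, with 66022 bound and 5286 unbound counts (3.64), and rad21a (3.72) were close to the condensin subunit SMC4, with 120320 and 9625 (3.64). The exception was the cohesin acetyltransferase esco1, at −1.08. DNA replication genes had a median of 0.60 and 18 of 52 at least 2-fold higher in bound, against 7 in unbound. RPA3, a subunit of the single-strand binding protein, was at 4.19, the licensing factor CDC6 at 3.70 and POLE2, a polymerase epsilon subunit, at 3.60. On the other side were GINS3, of the active helicase, at −1.62, the helicase subunit MCM2 at −1.28 and the flap nuclease FEN1 at −1.21. MCM7, of the same helicase as MCM2, had 27636 bound and 2711 unbound counts, a ratio of 3.35, but only 1928 unfractionated counts. Its weighted sum was 3.82 times the unfractionated count, so its level is uncertain.

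**Figure D2:**
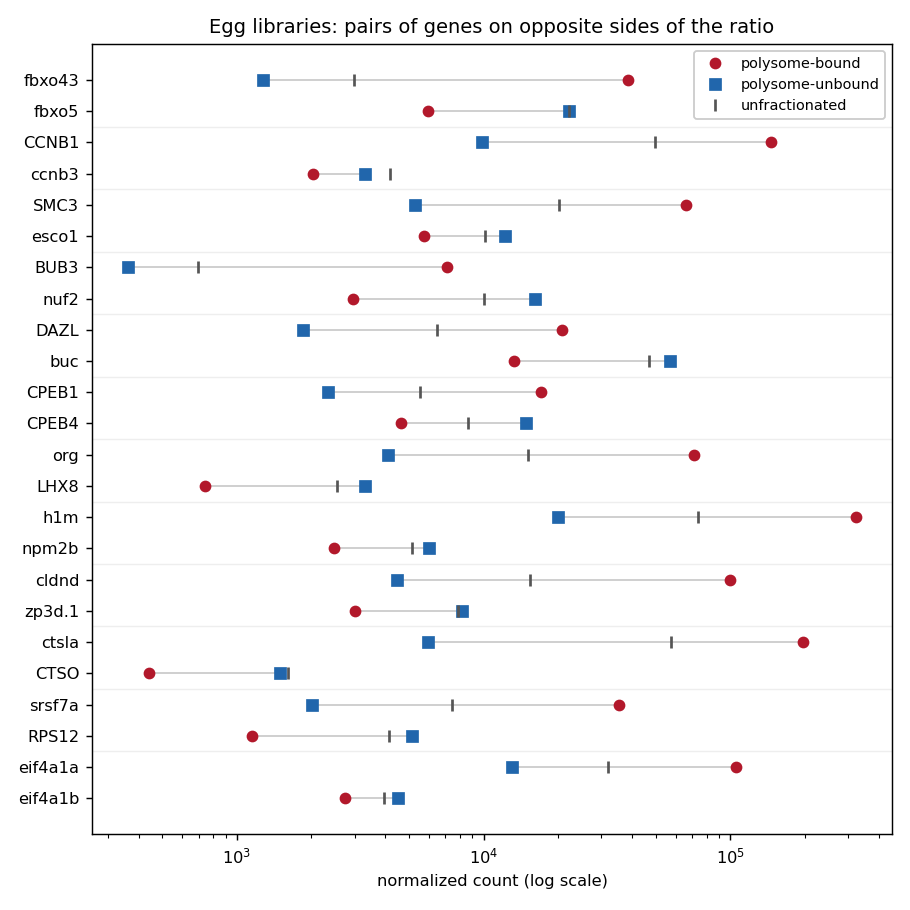
Normalized counts (log axis) of 24 genes in the polysome-bound, polysome-unbound and unfractionated egg library, 1 library each. The genes are arranged in pairs that were chosen to lie on opposite sides of the ratio. In each pair the upper gene has its bound point to the right of its unbound point, as fbxo43 with 38441 bound and 1272 unbound counts, and the lower gene the reverse, as fbxo5 with 5938 and 22180.

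Apart from the cell type marker lists, splicing protein mRNAs were the list with the highest median, 1.83, with 58 of 89 at least 2-fold higher in bound and 2 in unbound. The estimated share in the bound fraction was 51.5% at the median of this list. A core component of spliceosomal particles, SNRPD3, had at its locus ENSDARG00000013800.6 23958 bound, 560 unbound and 6645 unfractionated counts, a ratio of 5.42. Its second locus (ENSDARG00000076283.3) had 8654, 718 and 2466, a ratio of 3.59. The splicing regulators srsf7a and SRSF3 (ENSDARG00000059360.6) had ratios of 4.13 and 4.04, from 35505 bound and 2021 unbound and from 15336 and 930 counts. srsf3a was listed at 0 in the unbound library beside 3923 bound and 238 unfractionated counts, so no ratio is given, and reads shared with related loci were not tested. The 2 exceptions within this list, made of Sm, SR and hnRNP proteins, were PRPF38A at −1.18 and TRA2A at −1.06. Other splicing genes were outside the list, such as SCNM1 at −3.30. Of 15 genes with lsm symbols, not all of which act in splicing, 8 were at least 2-fold higher in bound and 4 in unbound (lowest −2.25). Families were also formed from the leading letters of the symbol alone. Of 139 families with at least 10 members, the srsf genes came first (median 2.63, 14 of 16 at least 2-fold higher in bound), followed by septin genes at 2.24 and kmt histone methyltransferase genes at 1.89. The nup nucleoporin genes (1.38, 11 of 21) and the chd remodellers (1.31, 6 of 11) came next.

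Chromatin and nuclear transport genes had medians of 0.58 and 0.53. Of 109 chromatin modifiers and remodellers, 44 were at least 2-fold higher in bound and 12 in unbound, led by the remodeller CHD4, with 96421 bound, 8955 unbound and 28297 unfractionated counts (3.43). The histone methyltransferase KMT2D was at 3.30. Of 61 nuclear pore and transport genes the numbers were 23 and 3, with NUP35 at 3.38, the importin kpna7 at 3.27 and RCC1, the exchange factor for Ran, at 3.24. RANGAP1 (ENSDARG00000041317.5), the GTPase activator for Ran, was an exception at −1.39. Of 24 cleavage, polyadenylation and mRNA export genes, 9 were at least 2-fold higher in bound and 5 in unbound (median 0.28, lowest −1.95), with THOC2 of mRNA export the highest at 3.25. Of 52 DEAD and DEAH box helicases the numbers were 17 and 7 (median 0.05), and the highest was DDX39A (ENSDARG00000006225.7), which acts in mRNA export, at 3.86. Of 21 histone and linker histone genes, 7 were at least 2-fold higher in bound and 3 in unbound (median 0.67, lowest −1.73). The highest, h1m, the maternal linker histone, had 322735 bound, 20066 unbound and 74024 unfractionated counts, a ratio of 4.01. Per transcript length it was the highest of the 5459 members that could be joined to 1 transcript, at 6353 TPM, the share of transcripts after correction for length, in the bound and 613 in the unbound library. h2af1al, a maternal H2A histone, was at 3.93. Its 58504 bound and 3841 unbound counts gave a weighted sum 3.63 times its 3936 unfractionated counts.

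HMG proteins, which bend or loosen DNA, differed among close relatives, with 7 of 16 at least 2-fold higher in bound and 4 in unbound. HMGB2 had 85978 bound, 2214 unbound and 20702 unfractionated counts, a ratio of 5.28. hmgb1b had 11238, 321 and 2700, a ratio of 5.13, and its duplicate hmgb1a had 6829, 2442 and 2891, a ratio of 1.48 (−0.19 when scaled to the control-like sequences). The duplicates of the nucleosome binding protein hmgn1 lay on opposite sides. hmgn1b had 1388 bound and 284 unbound counts, a ratio of 2.29, and hmgn1a had 19984 and 49326, a ratio of −1.30.

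The regulators that store and awaken maternal mRNA were themselves split. Of 50 such genes, 24 were at least 2-fold higher in bound and 7 in unbound, with a median of 0.84. DAZL, which promotes translation in germ cells, had 20799 bound, 1856 unbound and 6470 unfractionated counts, a ratio of 3.49. khdrbs1a (Sam68), an RNA-binding protein, had 206283, 16035 and 66446, a ratio of 3.69, and TENT4A, a non-canonical poly(A) polymerase, was at 3.11. The cytoplasmic polyadenylation factor CPEB1 had 17041 bound, 2349 unbound and 5521 unfractionated counts, a ratio of 2.86. Its relative CPEB4 had 4619, 14905 and 8664, a ratio of −1.69. ZAR1L, a repressor of maternal mRNA in the oocyte, was at 3.05. patl2, an oocyte repressor (−1.38), and LSM14B, a component of storage particles (−1.10), were higher in unbound, with 11587 and 30234 and with 6124 and 13088 bound and unbound counts.

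Decay factors were also found on both sides. Of 62 genes, with a median of 0.28, 22 were at least 2-fold higher in bound and 9 in unbound. The deadenylase subunits CNOT8, with 40566 bound and 4482 unbound counts (3.18), and CNOT7 (2.90) were higher in bound, as was KHSRP (3.24), which brings AU-rich mRNAs to decay. The exosome, the complex that degrades RNA from its 3' end, was uneven. EXOSC7 was at 3.17 from 6652 bound and 737 unbound counts. EXOSC9 was at −2.27 from 1286 and 6223 counts, and EXOSC4 and EXOSC1 were at −2.12 and −2.09.

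Germ plasm mRNAs had a median of 0.02, close to that of all genes, with 11 of 31 at least 2-fold higher in bound and 5 in unbound. buc, which organizes the Balbiani body and the germ plasm in zebrafish, had 13300 bound, 56926 unbound and 46791 unfractionated counts, a ratio of −2.10. By the estimate above 6.54% of it was in the bound fraction. DAZL, which lies in the same germ plasm, had an estimated 77.0%. tdrkh, a Tudor protein of the piRNA pathway, was at 3.19, and its pathway partners ASZ1, PIWIL2 and TDRD7 were at −1.59, −1.20 and −2.08. hook2, a dynein adaptor, was at 3.55.

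Of 32 oocyte genes, 12 (37.5%) were at least 2-fold higher in bound and 6 (18.8%) in unbound. The shares over all members were 23.9% and 18.5%. org, an oogenesis-related gene of zebrafish, had 71333 bound, 4111 unbound and 15153 unfractionated counts, a ratio of 4.12. LHX8, a homeobox regulator of the early oocyte, had 742, 3300 and 2551, a ratio of −2.15. The nucleoplasmins npm2a and npm2b, histone chaperones of the egg, were at −2.14 and −1.29. The zona pellucida genes, whose products coat the egg during oogenesis, had a median of −0.73. Of 18, 1 was at least 2-fold higher in bound and 4 in unbound, among them zp3d.1 with 3022 bound, 8197 unbound and 7902 unfractionated counts (−1.44). The gene on the bound side, zp2.5, had 971, 440 and 1220 (1.14, and −0.53 when scaled to the control-like sequences). Its weighted sum was 0.401 of the unfractionated count, so this value is uncertain. SYCP3, of the meiotic chromosome axis, was listed at 0 in the unbound library beside 340 bound and 167 unfractionated counts.

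Junction and adhesion mRNAs were also on the bound side, with 21 of 47 at least 2-fold higher in bound and 6 in unbound (median 0.94). The claudins cldnd and cldng, tight junction proteins, had 99860 bound, 4469 unbound and 15379 unfractionated counts (4.48) and 127000, 9979 and 43549 (3.67). oclna (occludin) was at 3.75 and epcam, an epithelial adhesion protein, at 3.48. Cathepsin mRNAs, lysosomal proteases several of which process yolk, had a median of 1.63 with 9 of 12 at least 2-fold higher in bound and 1 in unbound (median −0.05 when scaled to the control-like sequences). ctsla, a cathepsin L, had 197334 bound, 5950 unbound and 57639 unfractionated counts, a ratio of 5.05. The exception, CTSO, had 439, 1492 and 1606, a ratio of −1.76.

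**Figure D3:**
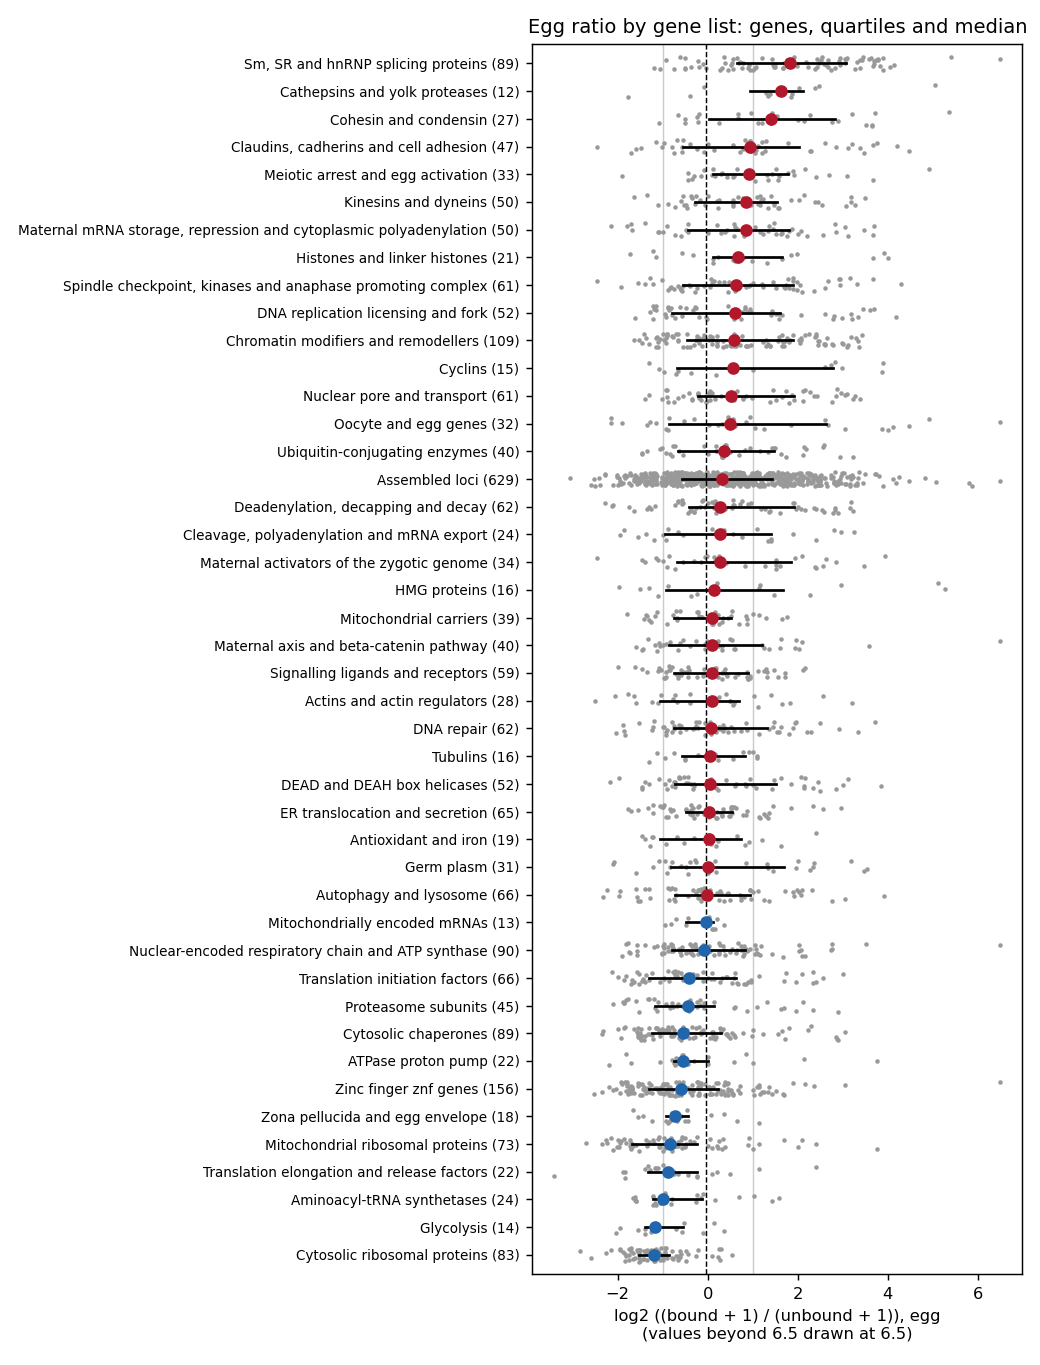
Log2 bound over unbound ratio of egg genes by list (number of genes in brackets), with each gene as a grey point, the quartiles as a bar and the median as a coloured dot, red above and blue below the median of all genes (dashed, −0.03). Splicing proteins are at the top with a median of 1.83 and cytosolic ribosomal proteins at the bottom with −1.18.

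The machinery of translation itself was mostly on the unbound side. Of 83 cytosolic ribosomal protein mRNAs, 0 were at least 2-fold higher in bound and 55 in unbound, with a median of −1.18, quartiles of −1.53 and −0.85 and a highest ratio of 0.54, that of RPL39. The list made up 0.148% of the bound, 0.555% of the unbound and 0.470% of the unfractionated members' counts. RPL19 had 1308 bound, 7838 unbound and 4040 unfractionated counts, a ratio of −2.58, and RPS12 had 1149, 5106 and 4123, a ratio of −2.15. RPLP1, of the ribosomal stalk, had 808, 5816 and 1734, a ratio of −2.85, and its weighted sum was 2.34 times the unfractionated count. The estimated share in the bound fraction was 11.6% at the median of the list.

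Of 73 mitochondrial ribosomal protein mRNAs, 7 were at least 2-fold higher in bound and 32 in unbound (median −0.83). MRPL46 was at −2.70 and MRPS33 at −2.35, but MRPS30 at 3.76 from 9789 bound and 719 unbound counts. Elongation and release factors had a median of −0.87, with EEF1G, a subunit of the elongation factor 1 complex, at 5164 bound, 18406 unbound and 16515 unfractionated counts (−1.83). Aminoacyl-tRNA synthetases had one of −0.99, with 3 of 24 at least 2-fold higher in bound and 12 in unbound. GARS1 and NARS1, the glycine and asparagine enzymes, were at −1.65 and −1.62, while EPRS1, the fused glutamate and proline enzyme, was at 1.03 (−0.64 when scaled to the control-like sequences). Initiation factors were mixed, with 10 of 66 at least 2-fold higher in bound and 19 in unbound. EIF2S2, the beta subunit of the factor that delivers the initiator tRNA, had 2096 bound and 9151 unbound counts (−2.13), and the helicase eif4a1a had 104857 and 13088. eif4enif1, a repressor that binds the cap-binding protein, was at 2.56.

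Among housekeeping lists, glycolysis lay on the unbound side. None of 14 glycolysis genes was at least 2-fold higher in bound and 8 were in unbound, with a median of −1.17. GAPDH had 5339 bound, 14031 unbound and 16212 unfractionated counts (−1.39) and ENO3, an enolase, had 6152, 23782 and 10153 (−1.95). Actins and their regulators were split, with 7 of 28 at least 2-fold higher in bound and 8 in unbound (median 0.10). The cytoplasmic actins actb1 and actb2 had 12002 bound and 50105 unbound (−2.06) and 11978 and 28392 (−1.25). arpc4l, a subunit of the actin branching complex, had 798 bound and 4515 unbound counts, while myl12.1, a myosin light chain, was at 3.21. Of 89 cytosolic chaperones, 12 were at least 2-fold higher in bound and 31 in unbound. HSPA8, the constitutive HSP70, had 32674 bound, 117274 unbound and 76192 unfractionated counts (−1.84), and HSP90AB1 had 28831, 104521 and 52700 (−1.86). Both genes for PTGES3, the HSP90 cochaperone p23, were at −2.32 and −2.34. PFDN1, a prefoldin subunit, and DNAJC2, a chaperone of the ribosome, at 2.85 and 2.90 were exceptions. Proteasome subunits had 8 of 45 at least 2-fold higher in bound and 14 in unbound. The core particle subunit PSMA4 was at −1.88 and the alternative activators PSME3 and PSME4 (ENSDARG00000018742.10), which cap the nuclear proteasome, at 2.35 and 2.89. Zinc finger genes with znf symbols had 19 of 156 at least 2-fold higher in bound and 51 in unbound.

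The 13 mRNAs encoded by the mitochondrial genome are a measure of RNA that cytosolic ribosomes do not translate. None was 2-fold to either side, their ratios ran from −0.94 for MT-ND1 to 0.37 for MT-ND3, and their median was −0.03, equal to that of all genes at this precision. MT-CO1, a cytochrome oxidase subunit, had 143990 bound, 128221 unbound and 163559 unfractionated counts. The bound fraction of the egg thus held mitochondrial mRNA at the ratio of the typical gene. Whether mitochondria or their ribosomes sedimented with the polysomes was not tested. The nuclear-encoded respiratory chain genes had a median of −0.07, with 19 of 90 (21.1%) at least 2-fold higher in bound and 13 (14.4%) in unbound. These shares are near the 23.9% and 18.5% of all members.

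Among the maternal factors that later activate the zygotic genome, 14 of 34 were at least 2-fold higher in bound and 5 in unbound (median 0.28). The lowest was VSX1 at −2.45, from only 33 bound and 187 unbound counts. The CCAAT-binding subunits NFYB and NFYC were at 3.93 and 3.48. Picked for their known role after their values were seen, pou5f3 had 64399 bound, 16796 unbound and 25253 unfractionated counts (1.94) and nanog 79834, 26324 and 28630 (1.60, and −0.07 when scaled to the control-like sequences). sox19b had 18235, 13668 and 15319 (0.42). In the maternal axis pathway, 11 of 40 were at least 2-fold higher in bound and 8 in unbound. These are near the shares over all members, 23.9% and 18.5%. The median of this list, 0.11, was also close to the −0.03 of all members, so the list as a whole did not stand out. ctnnb2, the maternal beta-catenin needed for the dorsal axis in zebrafish, had 47843 bound and 3962 unbound counts (3.59), but 4552 unfractionated, so that its weighted sum was 2.69 times that count. Its paralog CTNNB1 was at 1.37 (−0.31 when scaled to the control-like sequences). hwa, which stabilises beta-catenin on the dorsal side, had 202 bound, 549 unbound and 389 unfractionated counts, a ratio of −1.44.

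Genes whose symbols differ only in a final a or b were compared in pairs. The pairs were formed from the symbols alone, so some, such as fanca and fancb, are not duplicates. Over 154 pairs with at least 300 unfractionated counts for each gene, the median difference in ratio was 0.95, and 31 pairs differed by at least 2. In 12 pairs the copies were at least 2-fold to opposite sides, while in 20 both were at least 2-fold higher in bound and in 8 both in unbound. Over all members, 23.9% were at least 2-fold higher in bound and 18.5% in unbound. Pairs of unrelated genes were not compared, so these values are not shown to be particular to duplicates. Of the 154 pairs, dnajc5ga (49575 bound, 6010 unbound) and dnajc5gb (206 and 605), cochaperone genes, had the largest difference, 4.59. eif4a1a and eif4a1b differed by 3.72 and pttg1ipb and pttg1ipa, which encode a protein that binds securin, by 4.07. diablob and diabloa, of the apoptosis pathway, differed by 3.87. Reads shared between copies were not tested.

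The extremes of the ranking, among genes with a symbol and at least 1000 unfractionated counts, hold several genes outside these lists. The highest ratio, 6.15, was that of AKAP6, a kinase anchoring protein, with 67721 bound and 951 unbound counts. It had 70187 unfractionated counts, and the weighted sum was 0.203 of them, so this value is uncertain. BABAM2, of a deubiquitinase complex in DNA repair, was at 4.62, DMXL2, which acts with the proton pump, at 4.57 and thy1, a surface glycoprotein, at 4.64. PCED1B was at 4.54 and SNRNP40, of the U5 splicing particle, at 4.53. At the other end, spata6l had 1892 bound, 23010 unbound and 15387 unfractionated counts, a ratio of −3.60, and SCNM1, of the minor spliceosome, had 501, 4942 and 3727 (−3.30). lrrc59, an endoplasmic reticulum protein that binds ribosomes, was at −2.94 from 3080 bound and 23667 unbound counts. FCF1 and surf6, which act in ribosome assembly, were at −2.86 and −2.79. No list of that pathway was made. Of the 10 genes with utp symbols, 1 was at least 2-fold higher in bound and 5 in unbound (median −1.04, highest 1.61). The helicases DDX49 and DDX52 were at −2.17 and −1.96. CACYBP, a partner of the ubiquitin ligase SIAH1, was at −2.81, INPP5K (ENSDARG00000099563.1), an inositol phosphatase, at −2.68, YJU2B at −2.63 and si:ch73-44m9.1 at −2.99. The second INPP5K locus (ENSDARG00000078618.4) was on the other side, with 857 bound and 504 unbound counts (0.76).

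Counts also rise with transcript length, so the mRNAs that supplied the most reads are given as they are. In the bound library these were led by DNMT1, the maintenance DNA methyltransferase, with 337900 bound and 36930 unbound counts (3.19), and h1m. pcnt (pericentrin), at 230067 and 24249, RIF1, a regulator of replication timing, at 183813 and 18175, and CKAP5, a microtubule polymerase, at 153780 and 23176, belonged to them, as did the remodeller CHD7 at 154666 and 24632. In the unbound library they were MT-CO1, NASP, HSPA8 and HSP90B1, followed by others that include ncl (nucleolin), at 46583 bound and 83992 unbound counts (−0.85), zc3h11a, of mRNA export, at 28483 and 83590 (−1.55), and GMNN, the inhibitor of replication licensing, at 40316 and 70419 (−0.80). NASP, a histone chaperone, was high in both, at 157342 and 126011 (0.32).

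Level and length both went with the ratio. The share of genes at least 2-fold higher in bound was 18.9% at 100 to 200 unfractionated counts and 49.6% in the 266 genes above 20000. For the 5459 members joined to 1 transcript, the median ratio was 0.74 below 500 bases, −0.40 between 1000 and 1500 and 0.60 above 6000. Genes at least 2-fold higher in unbound were 28.2% between 1000 and 1500 bases and 3.38% above 6000. Spearman rho across genes was only 0.097 with length and 0.119 with the unfractionated count. The part of length or level in any list's median was not tested.

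**Figure D4:**
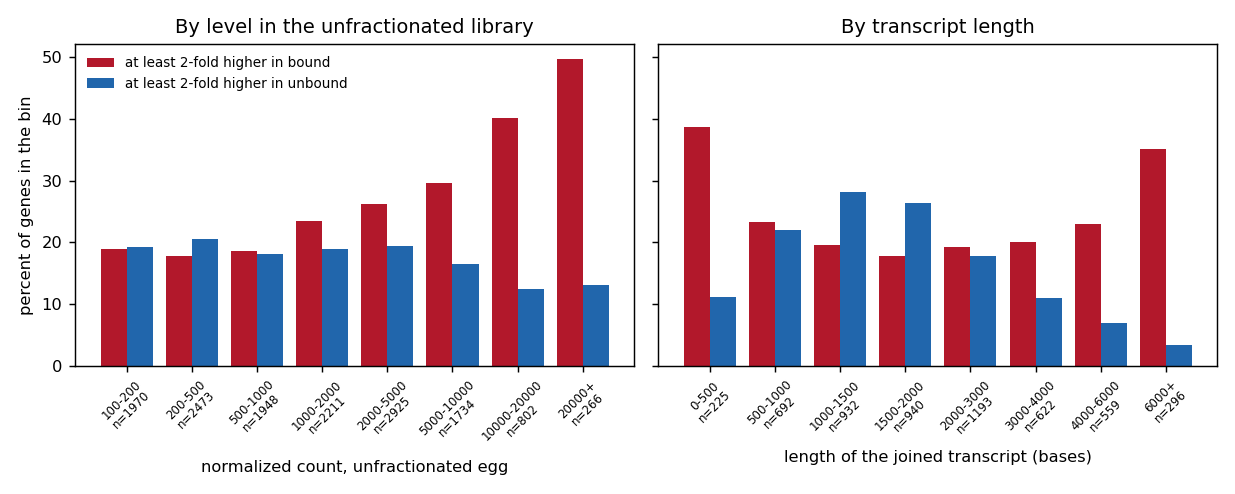
Percent of egg genes at least 2-fold higher in bound (red) and in unbound (blue) by unfractionated normalized count (left) and by length of the joined transcript (right), with the number of genes under each bin. The red share reaches 49.6% in the highest count bin, and the blue share falls to 3.38% in the longest transcripts.

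The egg was set against the later stages to ask which of these positions lasted. Members were chosen by their egg counts, and no minimum count was set at the later stages. The part of genes with low counts there in the values below was not tested. The egg ratio had a Spearman rho across the 14329 genes of 0.838 with that of the 1-cell stage, 0.693 with 16-cell, 0.567 with 128-cell, 0.181 with 3.5 hpf and 0.145 with 5.3 hpf. Of the 3428 genes at least 2-fold higher in bound in the egg, 75.6% were so at 1-cell, 67.6% at 16-cell, 59.2% at 128-cell, 28.3% at 3.5 hpf and 17.6% at 5.3 hpf. Of all members the shares were 22.2%, 25.3%, 25.3%, 18.2% and 10.7%. Of the 2651 at least 2-fold higher in unbound, 59.0%, 57.2%, 50.7%, 31.9% and 19.0% were so at these stages, against 15.8%, 20.1%, 22.1%, 24.8% and 17.0% of all members. In all 3 cleavage stages, 1612 of the bound genes (47.0%) and 820 of the unbound genes (30.9%) were on the same side. Over all members this joint share was not counted. It can be no larger than the lowest single-stage share of all members, 22.2% for bound and 15.8% for unbound.

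Among the egg and 3 cleavage stages, several genes had a high ratio at the egg and 1-cell stages and a lower one later. ZAR1L had ratios of 3.05 at the egg and 2.56 at 1-cell, then −1.97 and −2.61 at 16-cell and 128-cell. org had 4.12 and 3.56, then 0.22 and −1.79. BUB3 had 4.29 and 3.34, then −1.54 and −2.17, and BIRC5 3.17 and 2.68, then −0.64 and −2.89. ATP6V1H, of the proton pump, had 3.75 and 3.71, then −0.22 and −1.18. For CCNB1 and CCNE1 the ratio was between 3.39 and 3.89 at the egg and all 3 cleavage stages. In the other direction, hmgn1a had −1.30 and −0.86, then 1.30 and 2.03, and GMNN had −0.80 and −0.37, then 1.01 and 1.71. These 7 were noticed after their values were seen, so their order over the stages is a description.

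The difference between the egg ratio and that of the 3 cleavage stages was tested with limma on 8 libraries, with 2 residual degrees of freedom. No gene of 22250 passed an adjusted p of 0.05 (smallest adjusted p by limma 0.966), and 362 were higher and 170 lower in the egg at an unadjusted p under 0.05. edgeR on 36878 single transcripts called 0 as well. For BUB3 the difference was 4.41 ± 1.91 (SE) and the adjusted p by limma 0.966. Data for this comparison were simulated with the spread around a fit of stage and fraction alone, so egg differences counted as spread. In these data the test recovered 0% of 4-fold and 0% of 16-fold changes in 21909 genes. A count of 0 in the measured data therefore says nothing about stability. In the measured data, leaving out the 1-cell pair gave calls on both sides, and leaving out the 16-cell or the 128-cell pair gave none. These fits had fewer than 2 residual degrees of freedom. Their spread came only from the cleavage pairs left in, so their calls are not on the footing of the main fit.

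List medians moved at different stages. The 13 mitochondrially encoded mRNAs had medians of −0.03 in the egg, −0.55 at 1-cell, −0.59 at 16-cell, −1.49 at 128-cell, −2.05 at 3.5 hpf and −3.26 at 5.3 hpf, while all members had −0.03 in the egg and −0.21 at 5.3 hpf. Cytosolic ribosomal proteins stayed between −1.18 and −1.64 until 3.5 hpf and had −0.28 at 5.3 hpf. Splicing proteins had their lowest median, 1.30, at 5.3 hpf and their highest, 2.31, at 128-cell. Cytosolic chaperones had −0.54 in the egg and 0.35 at 5.3 hpf. The oocyte and egg genes had 0.50 in the egg and −0.29 at 5.3 hpf.

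**Figure D5:**
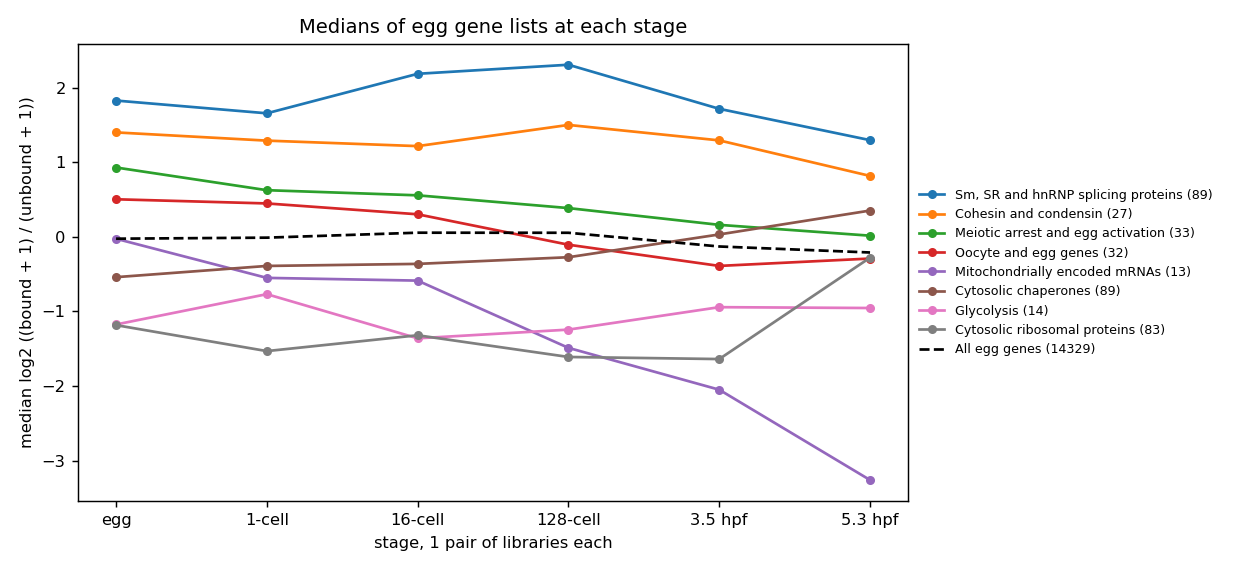
Median log2 bound over unbound ratio of 8 egg gene lists and of all egg genes (dashed) at the 6 stages, 1 pair of libraries per stage. Splicing proteins stay highest between 1.30 and 2.31, and the mitochondrially encoded mRNAs start at −0.03 in the egg and reach −3.26 at 5.3 hpf.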

How the data were processed

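Polysome-bound, polysome-unbound and unfractionated RNA of AB zebrafish was sequenced from strand-specific libraries after depletion of ribosomal RNA, per the labels' protocols. The submitters' processing notes name bcl2fastq 2.16.10, cutadapt 1.9.1, STAR 2.4.2a, GSNAP, Cufflinks 2.2.1, Salmon 0.6.0, DESeq2 and the genome build GRCz10, with no order. The gene signal values are normalized counts made by the authors before deposit, with 1 scale factor per library. How the factor was set is not given in the sources used here. Estimated counts and TPM values per transcript were deposited by the authors as Salmon output. They were joined to genes where the profile of 1 transcript over the libraries lay within 0.02 (log2) of the gene's. Of the 27015 gene IDs, 22547 matched a symbol.

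The log2 ratio used a pseudocount of 1. Intervals are exact binomial at 95%. Lists were matched by symbol. The members, lists and named genes were chosen with earlier results of these data known. Named genes were the 12 highest and 12 lowest ratios, up to 4 leading genes per list and its exceptions, the 12 highest counts per fraction, the 6 most different pairs of symbols ending in a and b, and paralogs or partners set beside them. RPL39, MT-ND3 and the genes said to be chosen after their values were seen fall outside this rule. Not every gene that the rule names is reported here. The 4 control-like sequences are transcript entries with no zebrafish gene ID. Their role is not given in the sources used here, and they had 26 estimated reads in the unfractionated egg library.

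The egg ratio was set against the cleavage stages with limma 3.58.1 (R 4.3.3) on log2(normalized count + 1), for genes with at least 10 counts in 2 of 8 libraries, with Benjamini-Hochberg adjustment. The stage was a block. edgeR 4.0.16 on rounded estimated counts was the alternative. The script was tested on simulated data, where it recovered 99% of 4-fold changes once the spread was cut to 0.1 of that around a fit of stage and fraction. Other steps used python 3.11.15, numpy 2.4.6, pandas 2.3.3, scipy 1.17.1 and matplotlib 3.10.9.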

Additional observations from a re-analysis of the deposited data

Results flagged for a closer look

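Of the 3428 genes at least 2-fold higher in bound in the egg, 646 were at least 2-fold higher in unbound at 3.5 hpf and 384 at 5.3 hpf. Of all members, 24.8% and 17.0% were at least 2-fold higher in unbound at these stages. Both are larger shares than those of the 3428 genes. Among the 206 genes whose values were listed for the text, 3 were at least 2-fold higher in bound at the egg and all cleavage stages and at least 2-fold higher in unbound at both later stages. Many of the 206 were picked for their egg ratios. The same count was not made over all members, so there is no share to read it beside. fbxo43 had a ratio of 4.92 in the egg and at least 2.42 at the 3 cleavage stages, but −2.43 at 3.5 hpf and −2.55 at 5.3 hpf. bmb had 3.67 in the egg, at least 1.34 at the cleavage stages, −1.60 at 3.5 hpf and −2.59 at 5.3 hpf. dnajc5ga had 3.04 in the egg, 2.75 at 1-cell and 2.96 at 128-cell, −1.56 at 3.5 hpf and −2.03 at 5.3 hpf. No minimum count was set at the later stages, and the counts there are not given here. Ratios that rest on low counts there were thus not excluded. These differences between stages were not tested.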

How the results depend on the processing

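The count of 3428 genes at least 2-fold higher in bound was 1838 with column sums, 619 with the 4 control-like sequences, 576 with weights to the unfractionated library (chosen after seeing the data), 7553 without a minimum count and 1386 at 4-fold. The count of 2651 at least 2-fold higher in unbound was 5861, 9945, 10142, 5235 and 266 under these settings, and 1762 with a minimum of 500 counts. Of 29 list medians above 0, 22 fell below 0 with column sums and 28 with either the control-like sequences or the weights, and splicing proteins alone stayed above 0 with these. Of 115 named genes above 0, 6, 13 and 13 did. Of values past 2-fold, the medians of cohesin and condensin (−0.28 and −0.34) and cathepsins (−0.049 and −0.11) changed sign with the control-like sequences and the weights, as did EPRS1 (−0.64 and −0.71), zp2.5 (−0.53 and −0.60), nanog (−0.074 and −0.14), CTNNB1 (−0.31 and −0.37) and hmgb1a (−0.19 and −0.26). These scalings move nearly all genes by 1 amount, except at low counts, where the pseudocount weighs in. With TMM scaling, median centring and a pseudocount of 10 both counts stayed within 1.5 times. Leaving out 1 cleavage stage gave 0 to 707 genes higher and 0 to 512 lower in the egg, the largest without the 1-cell pair, and the cause was not tested. With 1 library per stage and fraction, no replicated paired analysis of the egg ratio was possible. In the limma fit, stage paired the fractions. The limits are 1 library per fraction, an unknown zero of the scale, and a cleavage comparison that recovered 0% of 16-fold changes in simulated data.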
